A study of Mus musculus with 2 samples.

Results

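The genes of sterol and fatty acid synthesis were compared between USP21-ΔTreg cells and WT Treg cells. They comprised 37 genes chosen by symbol from the 16830 genes of the deposited expression table, namely 6 regulators and carriers of the SREBP system, 8 enzymes of the mevalonate and isoprenoid pathway, 12 enzymes from squalene to cholesterol, 8 genes of fatty acid synthesis, desaturation and elongation and 3 genes of sterol efflux and its control. All 37 were found, 36 by their own symbol and *Msmo1* under its older symbol *Sc4mol*. USP21-ΔTreg cells were CD4+CD25hiYFP+ cells from animals of genotype Foxp3-YFP-Cre/USP21-floxp/floxp. WT Treg cells came through the same gate from Foxp3-YFP-Cre animals. Both were sorted from spleen and lymph nodes of C57BL/6 mice at 6 months of age, and both carry the YFP-Cre fusion expressed from the *Foxp3* locus, so Cre acts only in cells that have expressed *Foxp3*. Each genotype was sequenced as 1 library without replicates, and the sources used here do not give how many mice each library came from. Each difference below is therefore one between 2 libraries, without a test or a p-value, and loss of USP21 cannot be told apart from any other difference between these preparations.

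Cholesterol is built from acetyl-CoA through mevalonate, isoprenoid diphosphates, squalene and lanosterol, and fatty acids are built from malonyl-CoA by fatty acid synthase and then elongated and desaturated. Transcription of most of these enzymes is controlled by the SREBP factors, which SCAP carries out of the endoplasmic reticulum when sterols are scarce and which INSIG proteins hold back when sterols are plentiful. Activated T cells raise both pathways to make membrane, and the isoprenoid side branch supplies the lipid anchors of small GTPases. In Treg cells the mevalonate pathway is known to contribute to suppressive function.

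Differences in both directions occurred within the pathways, but among genes with enough RNA to be counted only the lower ones reached 2-fold. *Mvd*, *Idi1* and *Fdps*, successive late steps of isoprenoid synthesis, *Sqle* and *Hsd17b7* of sterol synthesis, and *Elovl6*, *Scd2*, *Acaca* and *Fasn* of fatty acid synthesis had less RNA in USP21-ΔTreg cells, with ratios to WT Treg cells between 0.248 and 0.4998 on scaled counts. Smaller differences the other way were found for *Fads1*, *Tm7sf2*, *Dhcr7*, *Lbr*, *Abcg1* and *Elovl5*, with ratios between 1.07 and 1.69. These 6 are the counted genes whose counting interval, described below, lay above 1, as it did for 35.9% of all genes. None of these 6 was 2-fold higher on either scale. How many genes count as 2-fold lower depended on the scale. Levels are given as FPKM, fragments normalised by transcript length and library size as deposited. They are also given as fragments inferred from the deposited counts, called scaled counts here because they appear scaled between libraries. Fold changes are log2 ratios, USP21-ΔTreg over WT Treg, of FPKM + 0.1, on which low genes appear closer to 0 than they are, or of scaled counts with 1 fragment added. A gene was counted as lower or higher at a ratio of at least 2, if its mean FPKM was at least 1. This minimum was met by 34 of the 37 members, each with at least 1 FPKM in both libraries, and by 10948 of all genes. On FPKM, 3 of these 34 members were lower and none was higher, or 8.82% lower, against 6.20% of all genes lower and 7.78% higher. The share on FPKM is thus near the background. On scaled counts 9 of the 34 were lower and none was higher, or 26.5% lower, against 7.93% of all genes lower and 4.34% higher. The 3 genes lower on FPKM (*Mvd*, *Fdps* and *Elovl6*) were among the 9, and the other 6 were *Idi1*, *Sqle*, *Hsd17b7*, *Acaca*, *Fasn* and *Scd2*. The median over the members was −0.16 on FPKM and −0.37 on scaled counts, beside medians over all genes kept of 0.20 and −0.01. Fold changes were below 0 for 21 of the 34 on FPKM, against 36.6% of all genes, and for 26 on scaled counts, against 50.6%. With FPKM fold changes centred on their median, 8 members were lower against 8.34% of all genes, and with scaled counts centred likewise, an alternative chosen after seeing the data, 8 were lower, against 7.77%.

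**Figure D1:**
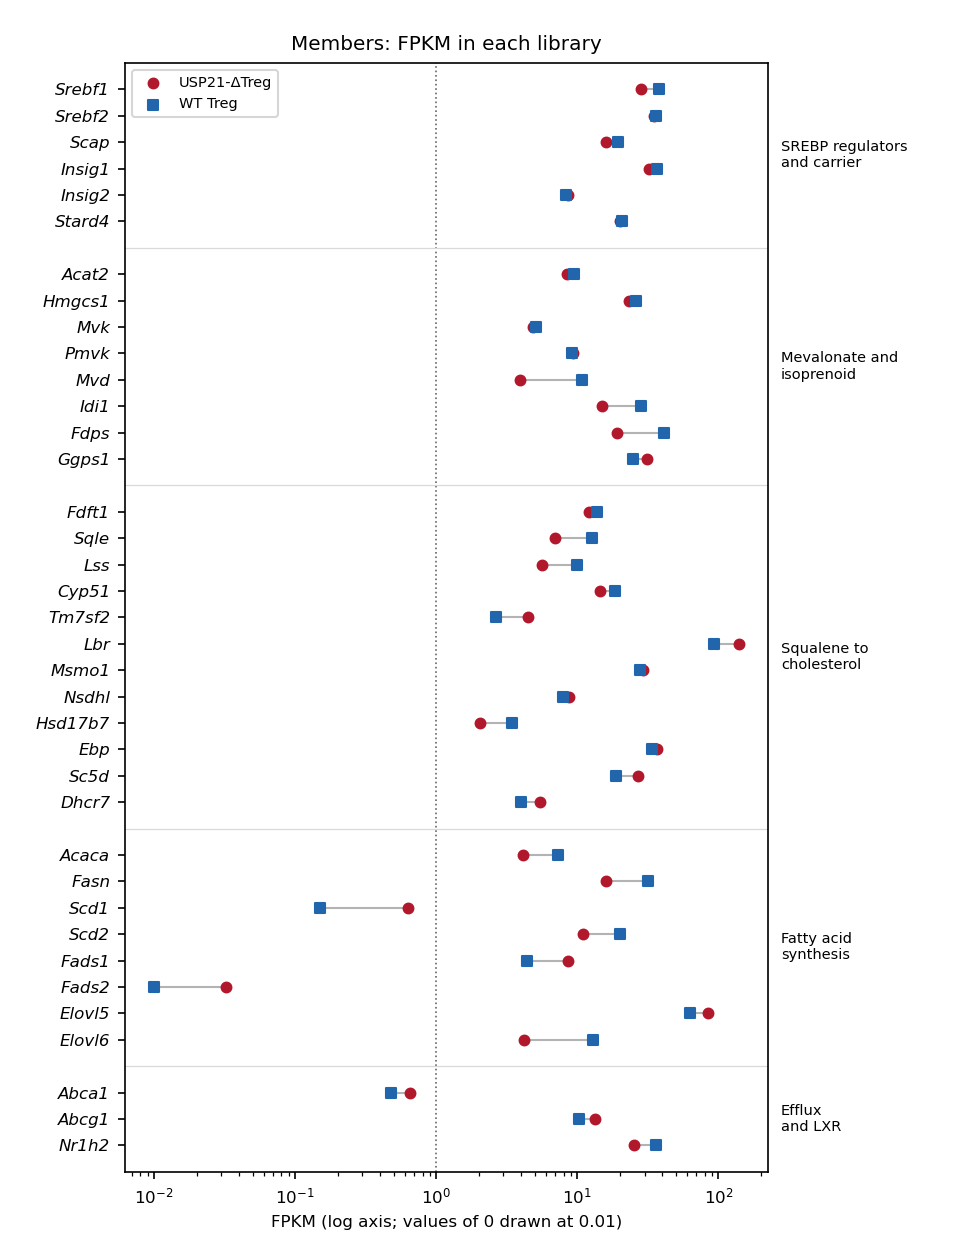
FPKM of the 37 members in the USP21-ΔTreg library (red circles) and the WT Treg library (blue squares), 1 library each, by branch, on a log axis, with the minimum mean of 1 FPKM dotted and the value of 0 for *Fads2* in WT Treg cells drawn at the left edge. Red points lie left of blue ones most widely for *Mvd* (3.94 and 10.8 FPKM) and *Elovl6* (4.16 and 12.9 FPKM), while *Lbr* and *Elovl5* were the most abundant members in both libraries.

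Depth set the counting error of these ratios. The USP21-ΔTreg library held 23418573 fragments in genes, of which 47265 (0.202%) fell on members, and the WT Treg library held 23198432, of which 54508 (0.235%) did. Each of the 34 members kept had at least 52 fragments in either library. The 95% Clopper-Pearson interval of the ratio of scaled counts, which covers counting error only and no variation between mice, lay below 1 for 21 members and above 1 for 6, against 38.8% and 35.9% of all genes. It lay wholly below 0.5 for 5 members (*Mvd*, *Idi1*, *Fdps*, *Scd2* and *Elovl6*), against 6.12% of all genes.

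**Figure D2:**
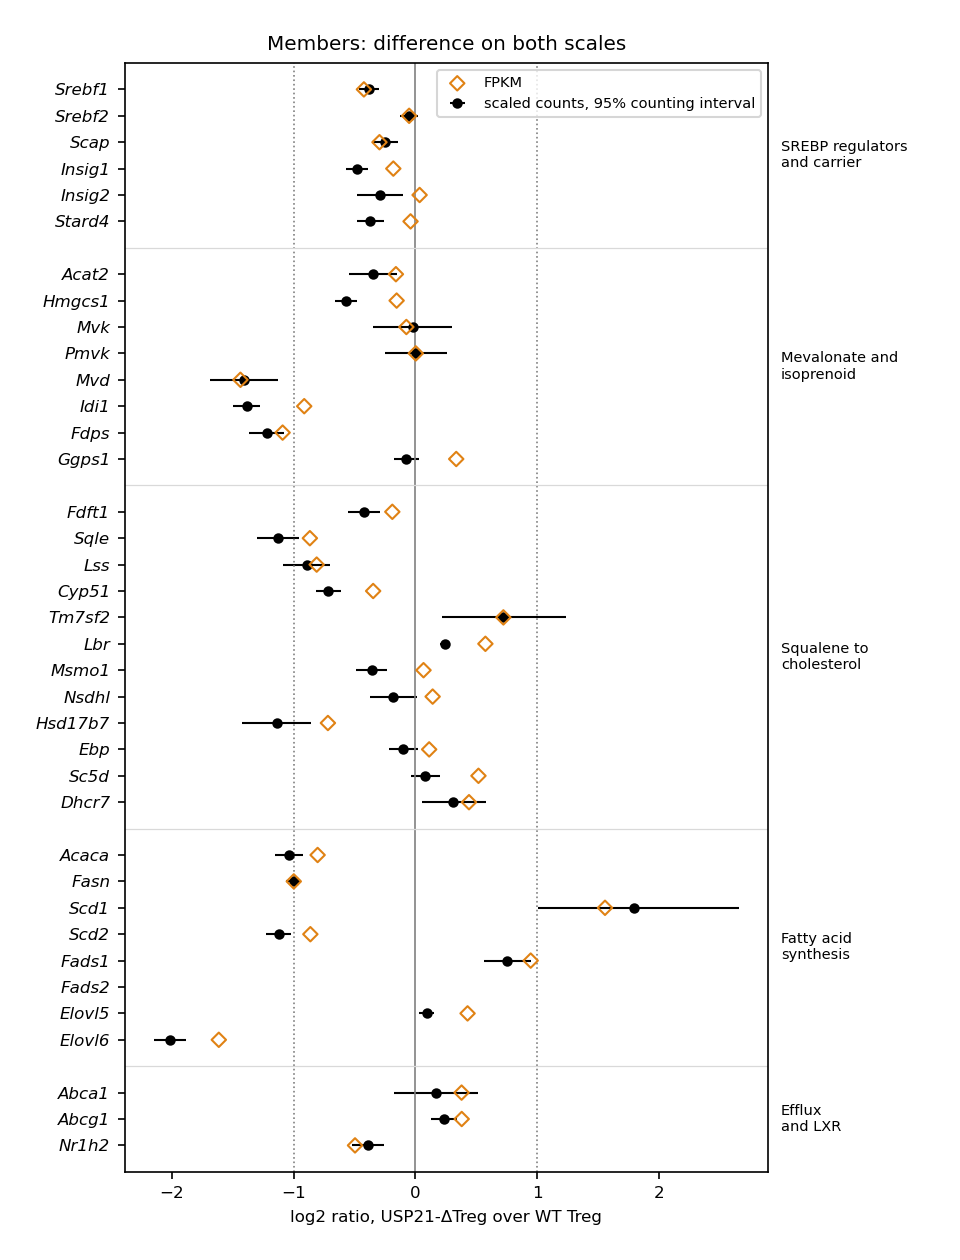
Log2 ratio of each member, USP21-ΔTreg over WT Treg, on scaled counts (black, bars for the 95% counting interval) and on FPKM + 0.1 (open diamonds), with dotted lines at 2-fold. The 9 members lower on counts sit at or left of −1 in black, and the diamonds of *Idi1*, *Hsd17b7*, *Scd2*, *Sqle* and *Acaca* lie to the right of it; *Fads2*, with 1 fragment and 0, is not drawn.

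The gap between both scales moved with base composition. Across the 34 members, FPKM fold change minus count fold change had a Spearman's rho of −0.95 with the GC content of the longest transcript, a description across genes that share both libraries. Over all 10866 genes kept that had a GC content it was −0.87, so the gap is not particular to the members. The gap was 0.47 for *Idi1*, whose transcript has a GC content of 41.9%, and −0.04 for *Mvd* at 59.0%. With FPKM fold changes centred within 20 bins of GC content, also chosen after seeing the data, 7 members were lower, against 7.89% of all genes. Which scale is nearer to the RNA content of the cells was not tested.

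To show the stretches of DNA through which this pathway is usually controlled, promoter windows of RefSeq (assembly GRCm38.p6, from 250 bases before to 50 after the start site) were searched for 4 motifs on both strands. These were TCACNCCAC, a form of the sterol regulatory element bound by SREBP factors, CACGTG, an E box that SREBP-1 can also bind, CCAAT, bound by NF-Y, and GGGCGG, bound by Sp1. NF-Y and Sp1 are known partners of SREBP factors. Windows were held for 29 members; those of *Abcg1*, *Fads1*, *Fdft1*, *Fdps*, *Scd1*, *Scd2*, *Sqle* and *Stard4* were not analysed here. The start site of a window lay at most 93 bases inside the RefSeq range of its gene for 26 of the 29, taking the outermost window of each. For *Fasn* it lay 619 bases, for *Srebf1* 1605 bases and for *Acaca* 65803 bases inside, so the single *Acaca* window is that of an internal start and its outer promoter was not analysed here. A CCAAT match occurred in 22 of the 29 members (75.9%), against 41.1% of 27025 genes with a window, and a GGGCGG match also in 22, against 38.2%. All genes here include non-coding genes and pseudogenes. An E box stood in 7 members (24.1%), against 8.09% of genes, and the sterol regulatory element in 1, *Hmgcs1* (3.45%), against 1.44%. Matches were counted over all windows of a gene, not the outermost alone. In *Dhcr7* CCAAT stood only in a window 7047 bases inside the gene and the E box only in one 232 bases inside. GGGCGG stood only 4638 and 4984 bases inside in *Insig2*, and only 3559 and 13715 bases inside in *Srebf1*. Of the 6 members that were lower on scaled counts and had a window, 4 held CCAAT, 3 held GGGCGG, 1 (*Hsd17b7*) an E box and none TCACNCCAC, and the internal *Acaca* window is among those without a match. Among the other 23 members the numbers were 18, 19, 6 and 1. These 23 include *Abca1*, with GGGCGG and an E box, and *Fads2*, with GGGCGG. Both were under the minimum FPKM and could not be called lower. A match of letters is a description and not a bound site.

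The 250 bases before the start site are printed for 4 members, each as its own strand reads from 5′ to 3′, with all motif matches in capitals. *Mvd* and *Fasn* stand for members with lower RNA in USP21-ΔTreg cells, *Hmgcs1* is the member with the sterol regulatory element, and *Lbr* is the most abundant member, with higher RNA in USP21-ΔTreg cells. ATTGG and CCGCCC are the reverse strands of CCAAT and GGGCGG. The first was *Mvd* (chr8:122443423-122443672, minus strand), then *Fasn* (chr11:120824548-120824797, minus strand, within the outer end of the RefSeq gene range), *Hmgcs1* (chr13:119690101-119690350, plus strand) and *Lbr* (chr1:181842402-181842651, minus strand).
Mvd: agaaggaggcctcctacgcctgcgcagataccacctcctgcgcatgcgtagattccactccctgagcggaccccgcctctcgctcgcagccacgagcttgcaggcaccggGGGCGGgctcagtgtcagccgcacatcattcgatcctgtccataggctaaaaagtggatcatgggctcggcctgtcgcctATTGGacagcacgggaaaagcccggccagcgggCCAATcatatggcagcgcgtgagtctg
Fasn: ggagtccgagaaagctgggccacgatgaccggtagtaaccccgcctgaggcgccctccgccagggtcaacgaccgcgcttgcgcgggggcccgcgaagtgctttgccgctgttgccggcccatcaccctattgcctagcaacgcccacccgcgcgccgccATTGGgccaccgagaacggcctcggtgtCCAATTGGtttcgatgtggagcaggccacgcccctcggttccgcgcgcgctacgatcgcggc
Hmgcs1: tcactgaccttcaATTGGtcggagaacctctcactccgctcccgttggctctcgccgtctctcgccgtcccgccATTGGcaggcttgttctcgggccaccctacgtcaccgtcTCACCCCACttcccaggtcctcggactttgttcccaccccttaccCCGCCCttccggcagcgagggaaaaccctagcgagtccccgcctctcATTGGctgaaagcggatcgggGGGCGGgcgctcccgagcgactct
Lbr: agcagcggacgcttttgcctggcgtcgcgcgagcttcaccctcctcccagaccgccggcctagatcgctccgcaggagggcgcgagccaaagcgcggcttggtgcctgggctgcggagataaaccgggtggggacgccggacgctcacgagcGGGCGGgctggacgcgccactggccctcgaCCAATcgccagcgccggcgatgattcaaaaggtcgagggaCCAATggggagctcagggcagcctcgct
In *Hmgcs1* the sterol regulatory element began 137 bases before the start site, between CCAAT matches on the reverse strand at −176 and −45. *Mvd* held 2 CCAAT matches, at −60 and −27, and GGGCGG at −140. *Fasn* held 3 CCAAT matches, at −90, −62 and −59, and the last pair overlap in the run CCAATTGG. *Lbr* held CCAAT at −68 and −28 and GGGCGG at −98. Whether such matches go with the direction of the RNA difference was not tested.

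**Figure D3:**
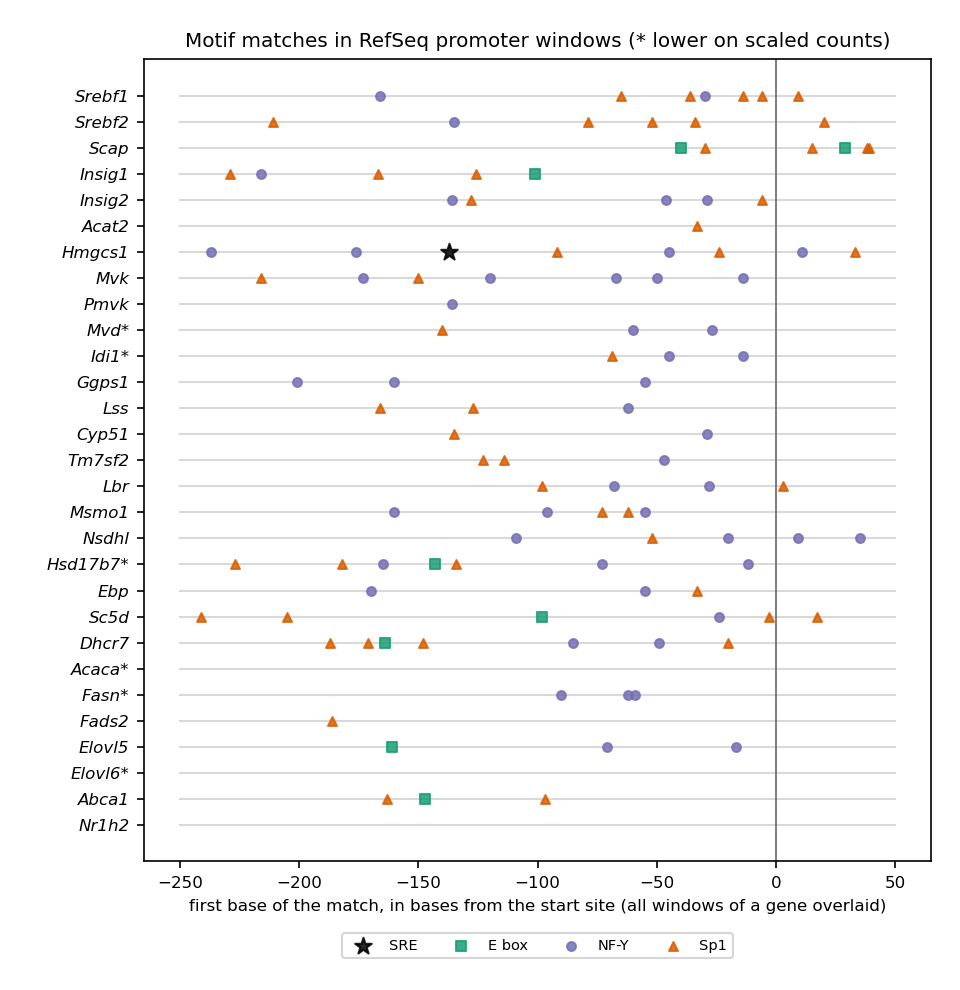
First base of each motif match in the promoter windows of 29 members, in bases from the start site, by motif, with all windows of a gene overlaid; an asterisk marks the 6 members lower on scaled counts. NF-Y and Sp1 matches lie in most rows, the only sterol regulatory element is that of *Hmgcs1*, and *Elovl6*, *Nr1h2* and the internal *Acaca* window hold none of the 4 motifs.

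Among the regulators, none of 6 differed by 2-fold on either scale, and all 6 were below 0 on scaled counts. *Srebf1*, which encodes the SREBP-1 factors of fatty acid and sterol synthesis, stood at 28.2 FPKM in USP21-ΔTreg cells and 37.8 FPKM in WT Treg cells, or 2435 and 2829 fragments. Its ratio of scaled counts was 0.767 (0.727 to 0.810), and its log2 fold change −0.42 on FPKM and −0.38 on scaled counts. *Srebf2*, which encodes SREBP-2, the main factor of sterol synthesis, was at 35.1 FPKM in USP21-ΔTreg cells and 36.4 FPKM in WT Treg cells (3031 and 2809 fragments), and its ratio of scaled counts was 0.962, with an interval of 0.914 to 1.01 that included 1. Its log2 fold changes were −0.05 and −0.06. The order of both factors therefore differed, with *Srebf1* at 0.803 times the FPKM of *Srebf2* in USP21-ΔTreg cells and 1.04 times in WT Treg cells. *Scap*, the escort of both, had 15.9 FPKM in USP21-ΔTreg cells and 19.5 FPKM in WT Treg cells (1414 and 1500 fragments). The log2 fold change of *Scap* was −0.30 on FPKM and −0.25 on scaled counts, with a ratio of 0.841 (0.781 to 0.904). *Insig1*, itself a target of SREBP factors that retains SCAP in the endoplasmic reticulum, was at 32.2 FPKM in USP21-ΔTreg cells and 36.6 FPKM in WT Treg cells, or 1675 and 2082 fragments. The ratio of its scaled counts was 0.717 (0.672 to 0.765), a log2 fold change of −0.48, against −0.18 on FPKM. Its paralog *Insig2* was at 8.56 FPKM in USP21-ΔTreg cells and 8.36 FPKM in WT Treg cells (435 and 475 fragments), with a log2 fold change of 0.03 on FPKM and −0.29 on scaled counts (ratio 0.817, 0.715 to 0.932). *Insig1* had 3.76 times the FPKM of *Insig2* in USP21-ΔTreg cells and 4.37 times in WT Treg cells. *Stard4*, a cytosolic sterol carrier, had 20.1 FPKM in USP21-ΔTreg cells and 20.7 FPKM in WT Treg cells (1228 and 1417 fragments), with −0.04 on FPKM and −0.37 on scaled counts (ratio 0.773, 0.715 to 0.835). Thus 5 of the 6 regulators had counting intervals below 1, against 38.8% of all genes, and *Srebf2* did not. In the table *Srebf1* shares its locus with *Rai1*, and the division of fragments between such genes is uncertain, since the labels and the methods name different library kits and only the kit of the methods marks strand. The same holds for *Fdft1* with *Ctsb*, *Lss* with *4930483K19Rik* and *Tm7sf2* with *Vps51*.

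Of 8 mevalonate and isoprenoid enzymes, 2 were lower on FPKM and 3 on scaled counts, against 6.20% and 7.93% of all genes. None was higher. The medians of the branch were −0.16 and −0.46. Its first steps did not reach 2-fold on either scale. *Acat2*, an acetoacetyl-CoA thiolase, had 8.43 FPKM in USP21-ΔTreg cells and 9.43 FPKM in WT Treg cells, with log2 fold changes of −0.16 on FPKM and −0.35 on scaled counts (ratio 0.786, 0.687 to 0.900). *Hmgcs1*, which makes HMG-CoA, had 23.4 FPKM in USP21-ΔTreg cells and 26.1 FPKM in WT Treg cells, or 1673 and 2213 fragments, with log2 fold changes of −0.15 on FPKM and −0.57 on scaled counts (ratio 0.674, 0.632 to 0.719). The kinases *Mvk* (4.84 FPKM in USP21-ΔTreg cells and 5.10 FPKM in WT Treg cells) and *Pmvk* (9.27 and 9.25 FPKM in the same order), which phosphorylate mevalonate in sequence, had counting intervals that included 1.

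The next 3 steps were lower on scaled counts. *Mvd* (Entrez gene 192156, minus strand of chromosome 8 of GRCm38 from 122433596 to 122443422), the decarboxylase that makes isopentenyl diphosphate, stood at 3.94 FPKM in USP21-ΔTreg cells and 10.8 FPKM in WT Treg cells. From 152 and 359 fragments its ratio of scaled counts was 0.378 (0.310 to 0.458), and both scales gave nearly the same fold change, −1.44 and −1.40. *Idi1* (Entrez gene 319554, plus strand of chromosome 13 from 8885606 to 8892396), the isomerase that follows, had 14.9 FPKM in USP21-ΔTreg cells and 28.2 FPKM in WT Treg cells, or 900 and 2098 fragments. It fell short of 2-fold on FPKM (−0.91) and passed it on scaled counts (−1.39), where its ratio was 0.382 (0.353 to 0.414). *Fdps* (Entrez gene 110196, chromosome 3 from 89093588 to 89101967), which makes farnesyl diphosphate, had 19.2 FPKM in USP21-ΔTreg cells and 41.0 FPKM in WT Treg cells, or 582 and 1210 fragments. It passed 2-fold on both scales, at −1.09 on FPKM and −1.22 on scaled counts, with a ratio of 0.429 (0.388 to 0.474). In WT Treg cells it had ranked at position 3 among the members by FPKM, and in USP21-ΔTreg cells it ranked at position 13. *Ggps1*, which takes farnesyl diphosphate on to geranylgeranyl diphosphate for protein prenylation, was not lower, with 31.2 FPKM in USP21-ΔTreg cells and 24.7 FPKM in WT Treg cells. Its log2 fold change was 0.33 on FPKM and −0.08 on scaled counts, so its sign depended on the scale.

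Of 12 enzymes from squalene to cholesterol, none was lower or higher by 2-fold on FPKM. On scaled counts 2 were lower, against 7.93% of all genes. The branch had a median of 0.09 on FPKM and −0.27 on scaled counts, and both directions occurred in it. *Fdft1*, squalene synthase and the first step committed to sterols, had 12.1 FPKM in USP21-ΔTreg cells and 13.9 FPKM in WT Treg cells, with −0.19 on FPKM and −0.42 on scaled counts (ratio 0.746, 0.680 to 0.819). *Sqle*, the squalene epoxidase and a known rate-limiting step, had 6.94 FPKM in USP21-ΔTreg cells and 12.7 FPKM in WT Treg cells. Its 420 and 818 fragments gave a ratio of scaled counts of 0.458 (0.406 to 0.516), a log2 fold change of −1.13, against −0.87 on FPKM. *Lss*, the lanosterol synthase that closes the rings, followed at 5.64 FPKM in USP21-ΔTreg cells and 9.97 FPKM in WT Treg cells, with −0.81 on FPKM and −0.89 on scaled counts. *Cyp51*, which removes the 14α-methyl group of lanosterol, had 14.4 FPKM in USP21-ΔTreg cells and 18.4 FPKM in WT Treg cells, with −0.35 on FPKM and −0.71 on scaled counts.

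The next reduction can be made by either of 2 sterol C14 reductases, and both stood higher in USP21-ΔTreg cells. *Lbr*, which is also the lamin B receptor of the inner nuclear membrane, had 139.6 FPKM in USP21-ΔTreg cells and 93.7 FPKM in WT Treg cells, or 9426 and 7106 fragments. Its log2 fold change was 0.57 on FPKM and 0.24 on scaled counts (ratio 1.18, 1.15 to 1.22). *Tm7sf2* had 4.48 FPKM in USP21-ΔTreg cells and 2.68 FPKM in WT Treg cells, with a ratio of 1.65 (1.16 to 2.35) from 96 and 52 fragments, and log2 fold changes of 0.72 and 0.71. *Lbr* was 31.2 times as abundant as *Tm7sf2* per length in USP21-ΔTreg cells and 35.0 times in WT Treg cells. Neither reached 2-fold.

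Later enzymes of the branch were mixed. *Msmo1*, the C4-methyl sterol oxidase, and *Nsdhl*, the C4 decarboxylase that acts with it, had log2 fold changes of 0.07 and 0.14 on FPKM and of −0.36 and −0.18 on scaled counts. *Hsd17b7*, the 3-ketosteroid reductase of the same complex, had 2.06 FPKM in USP21-ΔTreg cells and 3.46 FPKM in WT Treg cells. From 159 and 312 fragments its ratio of scaled counts was 0.454 (0.373 to 0.552), and it passed 2-fold on that scale (−1.13) but not on FPKM (−0.72). *Ebp*, the sterol isomerase, had 36.9 FPKM in USP21-ΔTreg cells and 34.1 FPKM in WT Treg cells, and *Sc5d*, the C5 desaturase, 26.8 and 18.7 FPKM, both with counting intervals that included 1. *Dhcr7*, which makes cholesterol from 7-dehydrocholesterol, had 5.41 FPKM in USP21-ΔTreg cells and 3.97 FPKM in WT Treg cells, with a ratio of scaled counts of 1.24 (1.04 to 1.49).

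The genes of fatty acid synthesis split by step. Of 8 genes, 6 were kept, with medians of −0.83 on FPKM and −1.02 on scaled counts. Of these, 1 was lower on FPKM and 4 on scaled counts, against 6.20% and 7.93% of all genes. *Acaca*, the acetyl-CoA carboxylase that makes malonyl-CoA, had 4.14 FPKM in USP21-ΔTreg cells and 7.29 FPKM in WT Treg cells, or 989 and 1813 fragments (ratio of scaled counts 0.486, 0.450 to 0.526). On FPKM its log2 fold change was −0.80, and on scaled counts −1.04. *Fasn* (Entrez gene 14104, minus strand of chromosome 11 from 120805958 to 120825166), fatty acid synthase, had 15.9 FPKM in USP21-ΔTreg cells and 31.9 FPKM in WT Treg cells, or 3526 and 6291 fragments. It lay on the limit itself, with a log2 fold change of −0.999 on FPKM, just short of 2-fold, and of −1.0005 on scaled counts, just past it (ratio 0.4998, 0.479 to 0.521). *Elovl6* (Entrez gene 170439, plus strand of chromosome 3 from 129532386 to 129638495), which elongates palmitate to stearate, had the lowest fold change of all 34 members kept. It stood at 4.16 FPKM in USP21-ΔTreg cells and 12.9 FPKM in WT Treg cells, or 602 and 2167 fragments. Its log2 fold change was −1.61 on FPKM and −2.01 on scaled counts, and 2.70% and 1.95% of all genes kept had a lower one on these scales. The ratio of its scaled counts was 0.248 (0.226 to 0.271).

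The desaturases and the other elongase differed among themselves. *Scd2*, the stearoyl-CoA desaturase with most RNA in these cells, had 10.996 FPKM in USP21-ΔTreg cells and 20.1 FPKM in WT Treg cells, or 1178 and 2289 fragments. Its log2 fold change was −0.86 on FPKM and −1.12 on scaled counts (ratio 0.459, 0.427 to 0.492). *Scd1*, its close paralog, had a mean under 1 FPKM and was not counted, but stood at 0.634 FPKM in USP21-ΔTreg cells and 0.149 FPKM in WT Treg cells, or 66 and 17 fragments (ratio 3.46, 2.01 to 6.29). As these paralogs can share reads, the division of fragments between them is uncertain. They lay 17.4-fold apart in FPKM in USP21-ΔTreg cells and 134-fold apart in WT Treg cells. *Fads1*, the delta-5 desaturase of polyunsaturated fatty acids, had the highest log2 fold change among the members kept, 0.95 on FPKM and 0.75 on scaled counts, with 8.54 FPKM in USP21-ΔTreg cells and 4.39 FPKM in WT Treg cells. Its 664 and 351 fragments gave a ratio of 1.69 (1.48 to 1.93). *Fads2*, the delta-6 desaturase that precedes it, had 1 fragment in the USP21-ΔTreg library and none (0) in that of WT Treg cells, so no fold is given. *Elovl5*, which elongates polyunsaturated fatty acids, had 84.7 FPKM in USP21-ΔTreg cells and 62.9 FPKM in WT Treg cells, or 4727 and 3957 fragments (0.43 on FPKM, 0.09 on scaled counts, ratio 1.07, 1.021 to 1.11). *Elovl5* thereby had 20.3 times the FPKM of *Elovl6* in USP21-ΔTreg cells and 4.86 times in WT Treg cells.

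None of the 3 genes of sterol efflux and its control reached 2-fold. *Abcg1*, a transporter of cholesterol out of cells and a target of the oxysterol receptor LXR, had 13.4 FPKM in USP21-ΔTreg cells and 10.3 FPKM in WT Treg cells, or 1694 and 1283 fragments (0.38 on FPKM, 0.24 on scaled counts, ratio 1.18, 1.09 to 1.27). *Abca1*, the transporter that loads apolipoproteins, was under the minimum with 0.657 FPKM in USP21-ΔTreg cells and 0.482 FPKM in WT Treg cells, and its interval from 160 and 127 fragments, 0.884 to 1.43, included 1. *Nr1h2*, which encodes LXRβ, had 25.4 FPKM in USP21-ΔTreg cells and 35.9 FPKM in WT Treg cells, a log2 fold change of −0.50 on FPKM and −0.39 on scaled counts (ratio 0.763, 0.699 to 0.834).

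**Figure D4:**
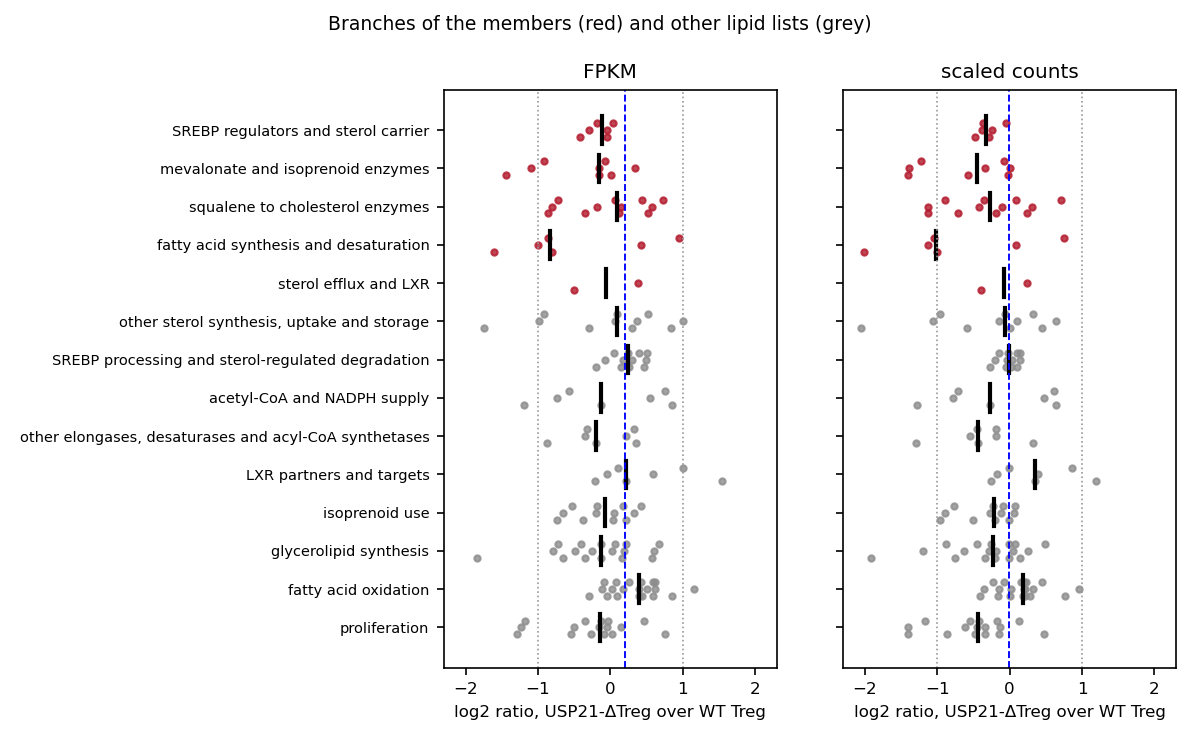
Log2 ratio, USP21-ΔTreg over WT Treg, of each gene with a mean FPKM of at least 1, by branch of the members (red) and by further lipid and proliferation lists (grey), on FPKM and on scaled counts. Black bars are list medians, the dashed line is the median of all genes kept (0.20 and −0.01) and dotted lines mark 2-fold; fatty acid synthesis has the lowest bar in both panels (−0.83 and −1.02), and fatty acid oxidation lies to the right of the dashed line in both (0.40 and 0.19).

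Neighbouring pathways were described with lists of further genes. Of 20 fatty acid oxidation genes kept, 16 were above 0 on FPKM, against 63.4% of all genes, and 14 on scaled counts, against 49.4%. Of these 20, 1 was higher and none lower on FPKM, with a median of 0.40, and on scaled counts none passed 2-fold, with a median of 0.19 and 11 counting intervals above 1, against 35.9% of all genes. *Cpt1a*, which admits long-chain fatty acids to mitochondria, was the higher gene, with 26.9 FPKM in USP21-ΔTreg cells and 12.1 FPKM in WT Treg cells. *Crat*, carnitine acetyltransferase, had a log2 fold change of 0.85 on FPKM. Of 7 genes of acetyl-CoA and NADPH supply, 1 was lower on both scales, *Pgd* of the pentose phosphate pathway, with 20.3 FPKM in USP21-ΔTreg cells and 46.7 FPKM in WT Treg cells. Of 18 glycerolipid genes, *Dgat2*, which makes triglycerides, was the one lower on FPKM, with 6.76 FPKM in USP21-ΔTreg cells and 24.6 FPKM in WT Treg cells (−1.85). *Agpat5* joined it on scaled counts (−1.20). Over all genes, 6.20% were lower and 7.78% higher on FPKM, and 7.93% and 4.34% on scaled counts. The 7 other elongation, desaturation and acyl-CoA synthetase genes had a median of −0.20 on FPKM and −0.44 on scaled counts, and *Hsd17b12*, the ketoacyl-CoA reductase of the elongation cycle, was lower on scaled counts (−1.29) but not on FPKM (−0.88).

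None of 12 genes of SREBP processing and sterol-regulated degradation passed 2-fold on either scale, with a median of 0.25 on FPKM, beside 0.20 for all genes, and one of −0.0022 on scaled counts, beside −0.01. Their counting intervals lay below 1 for 3 and above 1 for 3, against 38.8% and 35.9% of all genes. The proteases that cut SREBP factors, *Mbtps1* and *Mbtps2*, had log2 fold changes of 0.25 and 0.47 on FPKM, and of 0.15 and −0.03 on scaled counts, so the sign of *Mbtps2* depended on the scale. Of 11 other genes of sterol synthesis, uptake and storage, 1 was lower and 1 higher on FPKM, and 2 were lower on scaled counts. The lower gene on FPKM was *Lrp8*, a lipoprotein receptor, with 1.07 FPKM in USP21-ΔTreg cells and 3.82 FPKM in WT Treg cells. The higher was *Lipa*, the lysosomal lipase that frees cholesterol from its esters, with 44.8 FPKM in USP21-ΔTreg cells and 22.3 FPKM in WT Treg cells. *Lipa* lay on the limit, with a log2 fold change of 1.003 on FPKM and 0.64 on scaled counts. With 1 FPKM added, or after median centring, none of the 11 was higher. Of 7 LXR partners and targets, 2 were higher on FPKM, *Smpdl3a* (207.8 FPKM in USP21-ΔTreg cells and 71.1 FPKM in WT Treg cells) and *Mylip* (11.7 and 5.78 FPKM in the same order), and *Smpdl3a* alone on scaled counts. With 1 FPKM added, or after median centring, 1 of the 7 was higher. Over all genes, 6.20% were lower and 7.78% higher on FPKM, and 7.93% and 4.34% on scaled counts. None of 12 genes that use isoprenoids, such as the prenyltransferases, passed 2-fold. Their medians were −0.08 on FPKM and −0.22 on scaled counts, with 7 counting intervals below 1 and none above 1, against 38.8% and 35.9% of all genes. *Rabggtb*, a subunit of the transferase that prenylates Rab proteins, was the lowest at −0.73 on FPKM and −0.96 on scaled counts.

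The values of the libraries as a whole that bear on these members were as follows. Over the whole gene *Usp21* stood at 4.56 FPKM in USP21-ΔTreg cells and 11.8 FPKM in WT Treg cells, and *Foxp3* at 55.2 FPKM in USP21-ΔTreg cells and 91.8 FPKM in WT Treg cells. *Il2ra*, which encodes the CD25 of the gate, stood at 19.3 FPKM in USP21-ΔTreg cells and 168.2 FPKM in WT Treg cells. Both libraries expressed *Cd4*, *Cd3e* and *Ctla4*, with at least 79.3 FPKM each. *Cd4* and *Cd3e* had log2 fold changes of 0.62 and 0.73 on FPKM, and of 0.51 and 0.53 on scaled counts. For *Ctla4* they were 0.04 on FPKM and −0.34 on scaled counts, and for *Ikzf2* 0.24 and −0.23. *Tnfrsf18* was lower on both scales (−1.39 and −1.43), with 318.0 FPKM in USP21-ΔTreg cells and 833.2 FPKM in WT Treg cells. Of 16 proliferation genes 3 were lower on either scale (*Mcm2*, *Mcm3* and *Mcm5*, which encode subunits of the replicative helicase), none was higher, and the median was −0.15 on FPKM and −0.44 on scaled counts. *Mki67*, a marker of dividing cells, had log2 fold changes of 0.75 on FPKM and 0.48 on scaled counts. Of the 16 counting intervals, that of *Mki67* was the only 1 above 1, and 11 lay below 1, against 35.9% and 38.8% of all genes. Markers of B cells summed to 27.9 FPKM over 6 genes in USP21-ΔTreg cells and 11.3 FPKM in WT Treg cells, with 4 of 5 kept genes higher. Those of NK and CD8 T cells summed to 62.5 and 23.5 FPKM over 9 genes in the same order, with 2 of 6 higher, and those of myeloid cells to 52.0 and 25.4 FPKM over 10 genes, with 2 of 3 higher on FPKM and 1 on scaled counts. Those of erythroid cells summed to 64.0 and 24.7 FPKM over 6 genes, with 2 of 4 higher and 2 lower. The higher were the globin genes *Hba-a1* and *Hbb-b2*, and the lower their paralogs *Hba-a2* and *Hbb-b1*. As such paralogs can share reads, the division of fragments between them is uncertain. No marker of these 4 lists was at 0 in either library. Over all genes, 6.20% were lower and 7.78% higher on FPKM, and 7.93% and 4.34% on scaled counts. The part of proliferation and of other cell types in the member values was not tested, and in bulk RNA fewer cells of a type and less RNA per cell cannot be told apart.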

How the data were processed

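RNA of CD4+CD25hiYFP+ Treg cells was sequenced by the authors in 1 library per genotype. The authors removed ribosomal RNA, adaptor and low-quality reads and mapped the rest to mm10 with TopHat2 2.0.9, and Cufflinks 2.1.1 gave the deposited FPKM values with a reference annotation. The deposited counts were read as a signal of fragments scaled between libraries, an inference from the values themselves. On this reading 1 fragment is worth 0.918 (USP21-ΔTreg) or 1.03 (WT Treg), and 97.2% of values above 0 are whole fragments within 0.02 in each library. All fragment numbers and counting intervals rest on it. The methods name RNeasy RNA and a stranded total RNA kit, whereas the labels name Trizol and another TruSeq kit.

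Computations used scipy 1.17.1, pandas 2.3.3 and numpy 2.4.6 in Python 3.11.15, with plots by matplotlib 3.10.9. Coordinates and promoter windows came from RefSeq (GRCm38.p6) and transcript GC content from GENCODE M21, both on the build of the files. FPKM + 0.1, a minimum mean of 1 FPKM and a 2-fold limit were the main settings, and 1 fragment was added on scaled counts. Other values added, filters, limits, scales and centrings were tried as alternatives. All 37 members are described, with full values for those 2-fold apart on either scale, the regulators and paired enzymes. Of further lists, up to 4 genes with the largest absolute fold change were candidates for naming, of which a selection is printed, with *Mbtps1* added after its values were seen. Members and lists were chosen with earlier results of these data known. Symbols that had turned into dates (23) were restored by Entrez identifier, and 1 line of the table was not analysed here. The fold-change calls and counting intervals were tested on simulated data, in which FPKM and counts kept the same proportion in both libraries. That test did not cover the gap between scales, the reading of the deposited counts or the promoter search.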

Additional observations from a re-analysis of the deposited data

How the results depend on the processing

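No paired analysis was possible because there was a single library of either genotype, and no library could be left out. Over the main settings and 8 alternatives for fold changes, 21 of 34 members stayed below 0 and 7 above 0, and 6 changed sign (*Insig2*, *Pmvk*, *Ggps1*, *Msmo1*, *Nsdhl* and *Ebp*), none of them 2-fold apart in any setting. *Mvd*, *Fdps* and *Elovl6* were at least 2-fold lower in all of these settings. The number of lower members, 3 with the main settings, was 9 on scaled counts, 8 after median centring, 8 on centred counts and 7 when centred within GC bins, and 10 at 1.5-fold and 1 at 3-fold. The last 2 counts compare with 12.1% and 2.85% of all genes lower. At 1.5-fold 2 members were higher, 1 in the squalene branch and 1 in the fatty acid branch, against 22.9% of all genes, and without a filter 1 (*Scd1*, of the fatty acid branch). Centred counts and GC bins were chosen after seeing the data, and the cause of these shifts was not tested. The median of the members, −0.16 with the main settings, was −0.35 after median centring, −0.37 on counts, −0.36 on centred counts and −0.30 within GC bins. In the same order of settings it was −0.31, −0.33, −0.32 and −0.33 for the regulators, −0.35, −0.46, −0.45 and −0.42 for mevalonate enzymes, −0.11, −0.27, −0.26 and −0.16 for the squalene branch, against 0.09 with the main settings, and −1.03, −1.02, −1.01 and −0.97 for fatty acid genes. The sterol efflux median was −0.25 after centring. Without a filter the medians were −0.20 for fatty acid genes and 0.38 for sterol efflux, as genes with low values were then included. Lower genes of the squalene branch numbered 2 in each of those 4 settings and 3 at 1.5-fold, and lower fatty acid genes 3, 4, 3 and 2 in the order above, 2 with 0.01 FPKM added and 4 at 1.5-fold. At 3-fold 0 mevalonate enzymes were lower. Depth limits the members with the fewest fragments, such as *Fads2*, *Scd1* and *Tm7sf2*, and the lack of replicates limits every value.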
